A study of Homo sapiens with 6 samples.

Results

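The genes described here are *MAD2L2*, also known as REV7, and the genes whose proteins work with it in DNA damage tolerance, double-strand break repair and chromosome alignment. They were taken by symbol from the deposited table of 46427 genes, not by a cut on their values, and all 10 were found. Earlier results of these data were known when they were chosen. These were *MAD2L2*, the polymerase zeta and translesion genes *REV1*, *REV3L*, *POLH*, *POLI* and *POLK*, the shieldin genes *SHLD1*, *SHLD2* and *SHLD3*, and *CHAMP1*. All 10 passed edgeR's filter on low counts, which left 18366 genes for testing.

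The study compared parental HCT116 cells (*ZK3*-WT, wild type for *ZKSCAN3*) with HCT116 cells in which CRISPR/Cas9 had been used to remove the *ZKSCAN3* start codon on both alleles (*ZK3*-KO). HCT116, derived from a human colon carcinoma, is an established line. Both lines were grown untreated in DMEM with fetal bovine serum, and polyadenylated RNA of 3 cultures of each was sequenced as stranded paired-end libraries. The knockout cells came from transfection, culture with puromycin and single-cell selection. A difference between the lines can therefore also be a difference between a clone and its parental population, or a trace of the drug selection. These cannot be told apart.

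Between 60827060 and 69739215 reads were counted on genes per library. *ZK3*-KO replicate 3 stood apart from its group: its log2 CPM (counts scaled to a common library total, with TMM factors) correlated across genes with the other *ZK3*-KO libraries at 0.963 and 0.950, against 0.983 to 0.989 among *ZK3*-WT libraries. The result of each of the 10 genes is therefore also given without it. The 5 epithelial markers *EPCAM*, *KRT8*, *KRT18*, *KRT19* and *CDH1* were detected in every library, with a summed level of 3768 to 4828 TPM (a level scaled by transcript length and library total) in *ZK3*-WT and 3463 to 5612 TPM in *ZK3*-KO. Of 7 markers of other cell types, *PTPRC* had 0 reads in all libraries, and *PECAM1*, *COL1A2*, *DCN* and *LUM* had at most 10 reads. The hepatocyte gene *ALB* had 11 to 59 reads. Their summed level was 17.4 to 21.8 TPM in *ZK3*-WT and 12.3 to 29.8 TPM in *ZK3*-KO, nearly all of it from the collagen gene *COL1A1*. *ZKSCAN3* itself was counted at 28.1, 23.4 and 19.8 CPM in the parental and 25.4, 24.9 and 13.6 CPM in the knockout libraries. The knockout differed from the parental line by -0.16 in log2 fold change (standard error 0.27, false discovery rate (FDR) = 0.797 in edgeR's quasi-likelihood test), and by 0.09 (FDR = 0.766) without *ZK3*-KO replicate 3, so the sign rested on that library. A count per gene does not show whether a start codon is present.

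MAD2L2 is a small adaptor of the HORMA domain family that closes around short peptide stretches of its partners. With REV3L, the catalytic subunit, it forms the core of polymerase zeta, which extends DNA past lesions after another polymerase has inserted a base opposite them. REV1 is the scaffold that brings the inserting polymerases POLH, POLI and POLK to the blocked fork. In shieldin, MAD2L2 joins SHLD3 to SHLD2 and SHLD1, and the complex acts behind 53BP1 and RIF1 to limit the trimming of broken DNA ends. CHAMP1 is a zinc finger protein that binds MAD2L2 and takes part in attaching chromosomes to the spindle. The study asked whether *MAD2L2* is repressed by ZKSCAN3. The counts of *MAD2L2* and of its partners were examined here for differences between the same libraries.

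Between the genotypes no member of the 10 reached an FDR under 0.05 in edgeR's test, where 376 genes, 2.05% of those tested, did. Without *ZK3*-KO replicate 3, again none of the 10 passed, whereas 2858 of 18872 genes (15.1%) did. An unadjusted p-value under 0.05 was reached by 1 of the 10 with all libraries, *POLI*, and by 2 without *ZK3*-KO replicate 3, *POLH* and *POLI*, where 18.4% and 32.4% of all tested genes did. DESeq2 called none of them either, with an unadjusted p-value under 0.05 for 2 of the 10, *POLI* and *SHLD3*, and for 20.1% of all genes. The median log2 fold change of the 10 genes was 0.00, beside 0.02 over all genes tested. The median of its size regardless of sign was 0.12, beside 0.30 over all genes. These were not matched to the 10 for count level, on which the spread of a fold change depends. The CPM ranges of the genotypes did not overlap for 3 of the 10 genes, *SHLD3* (higher in *ZK3*-KO), *POLI* and *REV1* (both lower), where 26.6% of all tested genes had ranges that did not overlap. That share is close to the background, so the separation of these 3 genes is described below as values only.

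**Figure D1:**
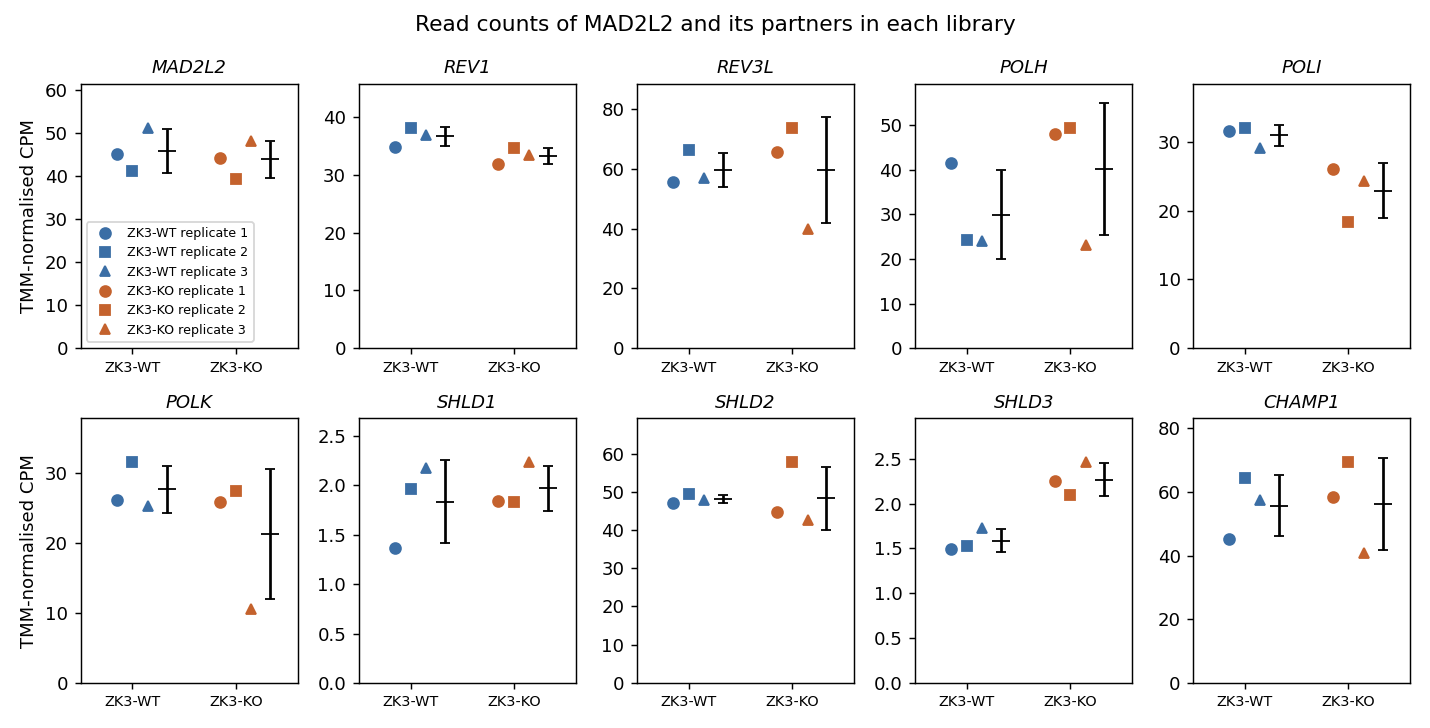
Read counts of the 10 genes in each of the 6 libraries, as TMM-normalised CPM on axes that start at 0. Each point is a library, and the black marks beside each genotype are the mean ± SD of 3 libraries. *MAD2L2* sits between 39.3 and 51.2 CPM in all libraries, and *ZK3*-KO replicate 3 has the lowest point for *REV3L*, *POLH*, *POLK*, *SHLD2* and *CHAMP1*.

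In GRCh37, the build of all positions below, *MAD2L2* occupies 11718975 to 11751868 of chromosome 1 on the reverse strand. The parental libraries held 45.0, 41.0 and 51.2 CPM of *MAD2L2* and the knockout libraries 44.2, 39.3 and 48.0 CPM. The lowest and the highest library of each genotype were those numbered 2 and 3, and the ranges overlapped. Within each replicate number the knockout library lay below the parental one, and with the replicate number as a block the log2 fold change was again -0.06 (FDR = 0.830 in edgeR's test). Fitted over all libraries without the block, the log2 fold change was -0.06, with a 95% confidence interval of -0.42 to 0.29 (FDR = 0.869 in edgeR's test), and without *ZK3*-KO replicate 3 it was -0.13 (-0.46 to 0.21, FDR = 0.601). A rise of *MAD2L2* mRNA by more than 0.29 on the log2 scale therefore lies outside the interval from all 6 libraries. The paper reports higher MAD2L2 in *ZK3*-KO cells by qPCR and Western blotting, and higher activity of its promoter in a luciferase assay. It also reports higher MAD2L2 in heterozygous knockout cells, and lower MAD2L2 mRNA and protein when ZKSCAN3 was overexpressed. The qPCR measured the same mRNA as counted here, and the rise it gave is not seen in these counts. The values of those assays were not compared with these counts. The 3 genes whose CPM followed *MAD2L2* most closely over the 6 libraries were *CHCHD6*, *TKFC* and *PRKACA*. They came from a search of 10794 genes with a mean log2 CPM of at least 3. Their root mean square differences of the centred log2 CPM were 0.03, 0.04 and 0.05. With so many genes and 6 libraries, close matches can arise from the search alone, and shared regulation was not tested. *MAD2L2* shares 876 exonic bases with *FBXO6* on the opposite strand. Since the strand setting of the counting was not given in the sources used here, reads of such pairs cannot be told apart. *FBXO6* had 649 to 1416 reads per library and *MAD2L2* 2728 to 3577. The log2 fold change of *FBXO6* was 0.50 (FDR = 0.367 in edgeR's test).

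The paper reports by chromatin immunoprecipitation that HA-tagged ZKSCAN3, expressed from an adenovirus, bound the *MAD2L2* promoter. The forward primer of that assay lies upstream of the second of the 2 starts that RefSeq lists. The 250 bases before that start, which hold the primer, match GRCh37 at chr1:11741206-11741455 on the reverse strand, hold 31 CG dinucleotides and have a GC content of 70.8%, against medians of 11 and 58.0% over 35116 RefSeq windows of the same length. They hold 5 copies of GGGCGG counted on both strands, a motif found in 42.6% of those windows. The annotation lists all 250 bases as untranslated exon sequence of other *MAD2L2* transcripts, so the letters are not printed. The deposited counts sum all *MAD2L2* transcripts and do not show which start was used.

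*REV3L* on chromosome 6 (111620231 to 111804918, reverse strand) encodes the catalytic subunit of polymerase zeta. Its counts were 55.8, 66.4 and 56.9 CPM in the parental libraries and 65.7, 73.9 and 39.9 CPM in the knockout libraries. The *ZK3*-KO libraries thus held both the highest and the lowest value, with replicate 3 below every other library. In the fit the difference was 0.00 in log2 fold change (95% confidence interval -0.55 to 0.55, FDR = 0.996 in edgeR's test). Leaving out *ZK3*-KO replicate 3 gave 0.23 (-0.09 to 0.55, FDR = 0.301). *POLD2* and *POLD3*, accessory subunits that polymerase zeta shares with polymerase delta, were singled out for that role and not by the rule for naming genes. *POLD2* was counted at 119 ± 11.9 CPM in *ZK3*-WT and 169 ± 17.7 CPM in *ZK3*-KO (SD, n = 3 each), with no overlap. With all libraries it differed by 0.50 in log2 fold change (FDR = 0.156), and it passed without *ZK3*-KO replicate 3 (0.58, FDR = 0.0235 in edgeR's test) and in 1 other of 13 alternatives. *POLD3* had 16.8 ± 0.494 and 20.2 ± 8.56 CPM (SD, n = 3 each) and a log2 fold change of 0.27 (FDR = 0.695), which was 0.55 (FDR = 0.0628) without *ZK3*-KO replicate 3.

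*REV1*, the scaffold of the translesion polymerases, lies on chromosome 2 from 100016938 to 100106497 on the reverse strand. The parental libraries held 34.8, 38.1 and 37.0 CPM and the knockout libraries 31.9, 34.6 and 33.4 CPM. The highest knockout library lay just below the lowest parental one, so the ranges did not overlap, by a narrow margin. *REV1* differed by -0.14 in log2 fold change (95% confidence interval -0.44 to 0.17, FDR = 0.624 in edgeR's test), by -0.13 (FDR = 0.541) without *ZK3*-KO replicate 3, and the value ranged from -0.17 to -0.10 when each library was left out in turn. *REV1* shares 852 exonic bases with *EIF5B*, a translation factor gene on the opposite strand. *EIF5B* had 12390 to 23136 reads per library, against 2054 to 2673 for *REV1*. Its log2 fold change was 0.44 (FDR = 0.231 in edgeR's test).

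Among the polymerases that insert bases opposite lesions, *POLH* encodes polymerase eta, which copies past ultraviolet-induced pyrimidine dimers and is missing in the variant form of xeroderma pigmentosum. It lies on chromosome 6 from 43543922 to 43588260. Parental libraries 1, 2 and 3 held 41.4, 24.3 and 24.0 CPM of *POLH*. The knockout libraries had 48.0, 49.5 and 23.2 CPM in the same order. High and low libraries occurred in both genotypes, and the ranges overlapped. With all libraries *POLH* had a log2 fold change of 0.43 (95% confidence interval -0.37 to 1.22, FDR = 0.551 in edgeR's test). Without *ZK3*-KO replicate 3 it was 0.71 (0.20 to 1.23), with an unadjusted p-value of 0.0124 and an FDR of 0.0670 in edgeR's test. The 3' end of *POLH* shares 261 exonic bases with *GTPBP2* on the opposite strand. *GTPBP2* was counted at 83.1, 136 and 199 CPM in the parental and 64.0, 34.5 and 295 CPM in the knockout libraries, and so was lowest in the libraries where *POLH* was highest.

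*POLI*, for polymerase iota, lies on chromosome 18 from 51795887 to 51847636. It was counted at 31.7, 32.1 and 29.2 CPM in the parental libraries and 26.1, 18.4 and 24.3 CPM in the knockout libraries. Every knockout library lay below every parental library, with *ZK3*-KO replicate 2 the lowest. The mean was 31.0 ± 1.56 CPM in *ZK3*-WT and 22.9 ± 4.01 CPM in *ZK3*-KO (SD, n = 3 each), a fitted ratio of 0.740. On the log2 scale this was -0.43 (95% confidence interval -0.84 to -0.03), with an unadjusted p-value of 0.0378 and an FDR of 0.241 in edgeR's test. It was -0.47 (FDR = 0.0984) without *ZK3*-KO replicate 3, and over the 13 alternatives the FDR lay between 0.0984 and 0.593. The difference thus did not pass after adjustment under any setting tried.

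*POLK*, for polymerase kappa, which copies past bulky adducts, lies on chromosome 5 from 74807670 to 74905816. The parental libraries held 26.1, 31.4 and 25.2 CPM and the knockout libraries 25.8, 27.3 and 10.5 CPM. Only *ZK3*-KO replicate 3 stood apart, and the other 5 libraries lay between 25.2 and 31.4 CPM. The log2 fold change of -0.38 (95% confidence interval -1.17 to 0.42, FDR = 0.605 in edgeR's test) became -0.05 (-0.40 to 0.30, FDR = 0.858) without it. The authors' FPKM of *POLK*, which is scaled by transcript length, was 0.821 in that library and 3.14 to 4.02 in the others. Reads divided by FPKM and by the library's total of counted reads give the transcript length that the FPKM implies. For *POLK* this length was 11.7 kb in *ZK3*-KO replicate 3 and 7.75 to 8.64 kb in the other libraries. For *REV3L* it was 11.7 to 12.5 kb and for *POLH* 8.19 to 8.83 kb over all 6 libraries. Which *POLK* transcripts the reads came from was not analysed here.

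**Figure D2:**
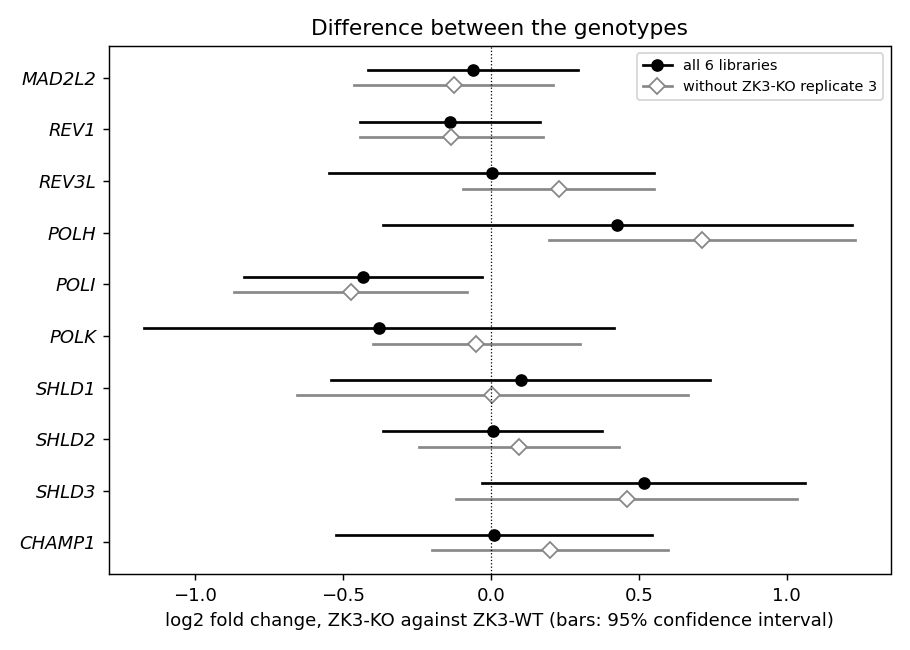
Log2 fold change of each of the 10 genes between *ZK3*-KO and *ZK3*-WT from edgeR's fit, with bars for the 95% confidence interval, for all 6 libraries (filled circles) and without *ZK3*-KO replicate 3 (open diamonds). The interval of *POLI* lies below 0 in both fits, that of *POLH* lies above 0 only without *ZK3*-KO replicate 3, and the others include 0. No gene passed an FDR of 0.05.

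*SHLD3* encodes the shieldin subunit that contacts RIF1 and holds MAD2L2. It lies on chromosome 5 from 64920854 to 64926755 on the forward strand, and starts within the first part of *TRAPPC13*, on the same strand. It was a low-count gene, with 94, 107 and 121 reads in the parental and 145, 145 and 152 reads in the knockout libraries. Normalised, these were 1.49, 1.53 and 1.73 CPM against 2.25, 2.09 and 2.46 CPM, so that every knockout library lay above every parental library. *SHLD3* had a log2 fold change of 0.52 (95% confidence interval -0.03 to 1.06), a ratio of 1.43, with an unadjusted p-value of 0.0609 and an FDR of 0.297 in edgeR's test. It lay between 0.46 (without *ZK3*-KO replicate 3, FDR = 0.246) and 0.58 when each library was left out in turn, and the FDR was between 0.193 and 0.645 over the alternatives. *TRAPPC13*, which shares 80 exonic bases with *SHLD3*, had 885 to 1371 reads per library and a log2 fold change of 0.02 (FDR = 0.973).

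The sequences before the starts of *SHLD3* and *REV1* are shown because they differ widely in base composition. They were picked with the values known, from genes whose ranges lay apart between the genotypes, in opposite directions. Ranges also lay apart for *POLI* and for 26.6% of all tested genes. A link between base composition and the direction of a difference was not tested. RefSeq's table of promoter windows held 10 windows for 8 of the 10 genes on GRCh38.p14, with *MAD2L2* and *REV3L* listed at 2 starts and no window for *SHLD1* or *SHLD2*. Both sequences were matched to GRCh37 and are written 5′ to 3′ on the gene's strand, ending at the annotated start. Capitals mark each CG dinucleotide.
SHLD3 (chr5:64920604-64920853, forward): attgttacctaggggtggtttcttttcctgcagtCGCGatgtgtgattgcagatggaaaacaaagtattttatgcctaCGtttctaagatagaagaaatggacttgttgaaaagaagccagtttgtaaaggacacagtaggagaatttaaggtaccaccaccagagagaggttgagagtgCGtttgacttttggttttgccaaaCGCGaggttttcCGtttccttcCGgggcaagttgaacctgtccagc
REV1 (chr2:100106498-100106729, reverse): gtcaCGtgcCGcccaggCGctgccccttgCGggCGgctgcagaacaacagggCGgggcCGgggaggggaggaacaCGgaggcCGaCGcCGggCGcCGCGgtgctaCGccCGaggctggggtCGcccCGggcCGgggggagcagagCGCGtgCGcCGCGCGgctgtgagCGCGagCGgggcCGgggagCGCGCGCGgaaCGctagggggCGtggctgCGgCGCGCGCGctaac
The 250 bases of *SHLD3* hold 8 CG dinucleotides and have a GC content of 44%, below the medians of 11 and 58.0% over all windows. The 232 bases of *REV1* hold 40 CG dinucleotides at a GC content of 80.6%, and stop where untranslated exon sequence begins. The other windows of the 8 genes hold 22 to 44 CG dinucleotides, so *SHLD3* alone of them has a start poor in CG. The last 23 bases of the *SHLD3* window are annotated as exon of *TRAPPC13*, and were not cut off. Its other letters therefore also lie before the start of *TRAPPC13*. The window lies within *TRIM23* on the opposite strand as well. TATAAA, counted on both strands, was found in 1 of the 10 windows, upstream of *REV3L*, and in 10.7% of all windows. GGGCGG was found in 8 of the 10 windows and in neither *SHLD3* nor *POLI*. Such matches describe letters and not binding sites.

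*SHLD2* encodes the subunit with folds that bind single-stranded DNA, and lies on chromosome 10 from 88853918 to 88951222. It was counted at 47.1, 49.4 and 47.8 CPM in the parental libraries and 44.7, 57.7 and 42.5 CPM in the knockout libraries. The knockout libraries lay on both sides of the parental ones. For *SHLD2* the fit gave a log2 fold change of 0.01 (95% confidence interval -0.36 to 0.38, FDR = 0.990 in edgeR's test). Leaving out *ZK3*-KO replicate 3 gave 0.10 (FDR = 0.703). The pseudogenes *SHLD2P1*, *SHLD2P2* and *SHLD2P3* had 73 to 115, 0 to 3 and 119 to 203 reads per library, against 2626 to 3999 for *SHLD2*, and reads may have been divided among these near copies.

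*SHLD1*, whose product binds SHLD2, lies on chromosome 20 from 5731039 to 5845041. It had 86 to 152 reads per library, or 1.37, 1.97 and 2.17 CPM in the parental and 1.85, 1.83 and 2.23 CPM in the knockout libraries. The knockout values lay within or just above the parental range. In edgeR's fit *SHLD1* had a log2 fold change of 0.10 (95% confidence interval -0.54 to 0.74, FDR = 0.882 in edgeR's test). Leaving out *ZK3*-KO replicate 3 gave 0.00 (FDR = 0.993).

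*CHAMP1* on chromosome 13 (115079957 to 115103101) was counted at 45.3, 64.4 and 57.5 CPM in the parental libraries and 58.5, 69.3 and 40.7 CPM in the knockout libraries. The lowest and the highest value were both from *ZK3*-KO libraries, replicates 3 and 2. *CHAMP1* had a log2 fold change of 0.01 (95% confidence interval -0.52 to 0.55, FDR = 0.987 in edgeR's test). Leaving out *ZK3*-KO replicate 3 gave 0.20 (-0.20 to 0.60, FDR = 0.472).

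Levels can be compared between genes in TPM. In *ZK3*-WT cells *MAD2L2* was the highest of the 10, at 89.6 ± 8.84 TPM (SD, n = 3), above 92.3% of the tested genes. *CHAMP1* (31.0 ± 5.92 TPM) and *SHLD2* (28.7 ± 1.24 TPM) came next and overlapped each other. They were followed by *REV1* (15.6 ± 0.849 TPM), which overlapped no neighbour in the order. *POLI* (12.2 ± 0.628 TPM), *REV3L* (11.6 ± 1.52 TPM), *POLH* (8.21 ± 2.45 TPM) and *POLK* (8.12 ± 0.862 TPM) formed a run in which each overlapped the next. *SHLD1* (2.57 ± 0.474 TPM) and *SHLD3* (2.16 ± 0.164 TPM) were lowest and overlapped. In *ZK3*-KO cells *MAD2L2* was again highest, at 78.3 ± 6.32 TPM, and did not overlap *CHAMP1* (29.3 ± 10.3 TPM). *POLI* moved from rank 5 to rank 7 and *SHLD3* from rank 10 to rank 9, but from *REV1* downward every gene overlapped the next.

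**Figure D3:**
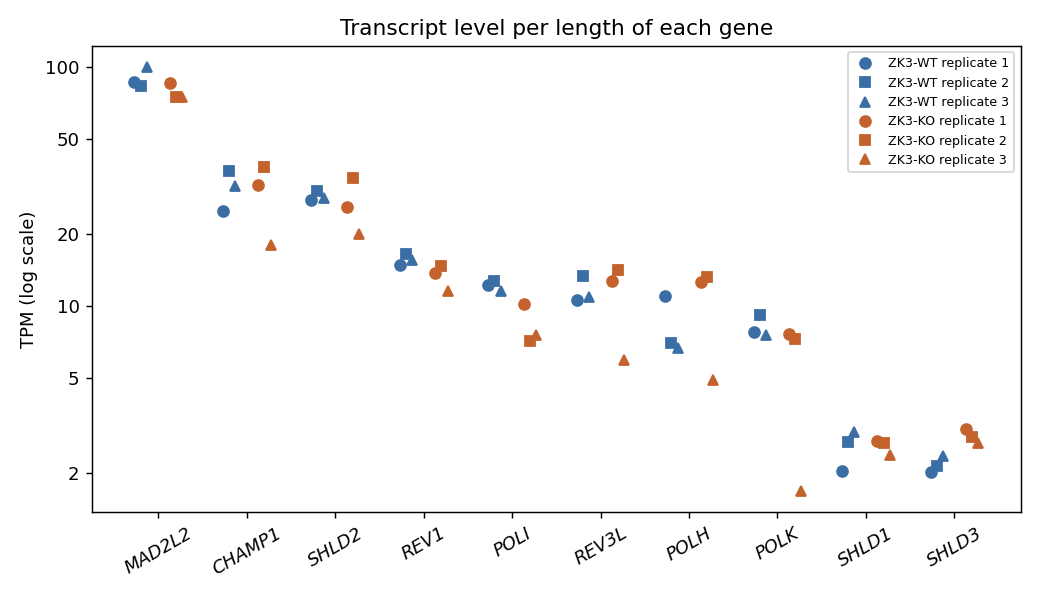
TPM of the 10 genes in each library on a log axis, ordered by the *ZK3*-WT mean, with *ZK3*-WT on the left and *ZK3*-KO on the right of each gene. *MAD2L2* lies between 74.5 and 99.6 TPM, above every other gene in every library, and *SHLD1* and *SHLD3* lie below 3.1 TPM in all libraries.

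Ratios of TPM within a library do not depend on the scaling between libraries. *MAD2L2* exceeded *SHLD3* by 42.9, 38.8 and 42.6 times in the parental libraries and by 28.1, 26.4 and 28.1 times in the knockout libraries, with no overlap. *SHLD3* by itself lay apart between the genotypes and *MAD2L2* did not, so this ratio is not a separate result. How many other pairs of genes separate in this way was not counted. Its ratio to *REV3L* was 8.18, 6.21 and 9.14 in the parental and 6.74, 5.29 and 12.6 in the knockout libraries, so that *ZK3*-KO replicate 3 was highest and *ZK3*-KO replicate 2 lowest. The ratio to *SHLD2* was 2.76 to 3.52 in *ZK3*-WT and 2.19 to 3.72 in *ZK3*-KO, and that to *CHAMP1* was 2.26 to 3.48 and 1.97 to 4.16. The ratio to *REV1* was 5.03 to 6.39 and 5.11 to 6.50, and that to *SHLD1* was 30.7 to 42.3 and 28.0 to 31.6, with overlap in each case. No test was made of these ratios.

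**Figure D4:**
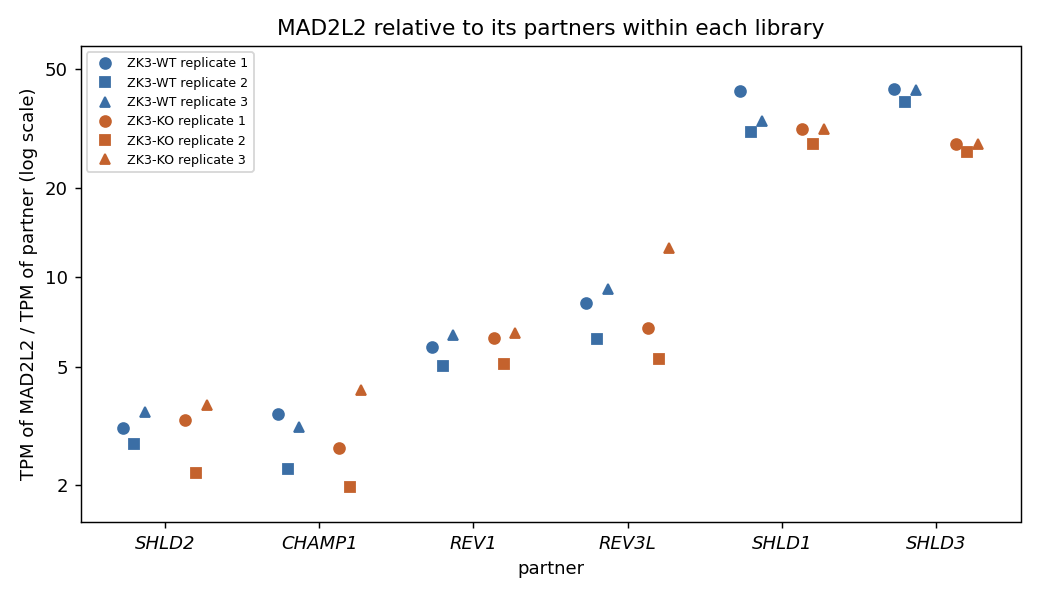
TPM of *MAD2L2* divided by the TPM of a partner in the same library, on a log axis, with *ZK3*-WT on the left and *ZK3*-KO on the right of each partner. The points of the genotypes are separate for *SHLD3*, at 38.8 to 42.9 against 26.4 to 28.1, and overlap for the other partners. *SHLD3* had 94 to 152 reads per library, and its own values lay apart as well.

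The wider pathway was described with 3 lists, of 26 genes for PCNA ubiquitylation and damage bypass, 22 genes for the 53BP1 axis and the fill-in of broken ends, and 15 genes for other proteins that bind MAD2L2, control its shape or bind CHAMP1. All genes of the lists were tested. With all libraries none of the genes on the 3 lists had an FDR under 0.05 in edgeR's test, where 2.05% of all genes did. Unadjusted p-values under 0.05 were reached by 4 of 26, 5 of 22 and 1 of 15, beside 18.4% of all genes, and DESeq2 called 2, 1 and 0 of them, beside 8.2% of all genes. The median log2 fold changes were 0.26, 0.16 and 0.30, beside 0.02 over all genes. Genes with a positive log2 fold change numbered 19 of 26, 15 of 22 and 14 of 15, beside 51.7% of all genes.

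Without *ZK3*-KO replicate 3, 8 of the 26 bypass genes, 7 of the 22 genes of the 53BP1 axis and 4 of the 15 interactors had an FDR under 0.05 in edgeR's test, where 15.1% of all genes did. All 8 bypass genes that passed were higher in *ZK3*-KO. Of all genes in that fit, 1399 (7.41%) passed and were higher, and 1459 passed and were lower. *PCNA*, the sliding clamp whose ubiquitylation recruits translesion polymerases, rose by 1.68 on the log2 scale (FDR = 0.00517). Its libraries held 119, 67.7 and 68.3 CPM in the parental and 220, 319 and 70.6 CPM in the knockout libraries, and its log2 fold change with all libraries was 1.26 (FDR = 0.248). *PCLAF*, a PCNA-binding factor (1.30), *SIVA1* (1.12), *DTL*, a subunit of a ubiquitin ligase that acts on PCNA (0.97), *ATAD5*, which unloads PCNA (0.89), and the end-joining polymerase gene *POLQ* (0.80) also rose, with *RFWD3*, named to complete the count, and *POLD2*. *SIVA1* came nearest to the threshold with all libraries, at 38.1, 25.9 and 31.1 CPM against 60.4, 76.5 and 50.9 CPM (log2 fold change 0.98, FDR = 0.0679 in edgeR's test). *RAD18*, the ligase that ubiquitylates PCNA, did not pass, at 26.9, 26.9 and 27.3 CPM in the parental and 27.1, 40.3 and 13.4 CPM in the knockout libraries (log2 fold change -0.0045, and 0.32 without *ZK3*-KO replicate 3, FDR = 0.996 and 0.243).

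Of the 53BP1 axis, 6 genes rose and 1 fell without *ZK3*-KO replicate 3. The polymerase alpha and primase genes *POLA2* (log2 fold change 0.92), *PRIM2* (0.83) and *POLA1* (0.82), which work in the fill-in of ends, rose, as did *BARD1* (0.85), *PAXIP1* (0.52) and, named to complete the count, *DYNLL1* (0.52). *STN1*, of the CST complex that guides this fill-in, fell by 0.55 on the log2 scale. *TP53BP1*, the gene of 53BP1 itself, did not pass in any of the 13 alternatives, although every knockout library lay below the parental ones, at 112, 110 and 96.0 CPM against 145, 138 and 139 CPM (log2 fold change -0.40, standard error 0.14, FDR = 0.184 in edgeR's test). Leaving out *ZK3*-KO replicate 3 gave -0.33 (FDR = 0.0929). *RIF1* had 101, 121 and 99.7 CPM in the parental and 105, 140 and 39.0 CPM in the knockout libraries (log2 fold change -0.18, FDR = 0.853). Its sign turned, to 0.20 (FDR = 0.440), when *ZK3*-KO replicate 3 was left out. Among the interactors *TRIP13*, the ATPase that opens the closed form of MAD2L2, rose by 0.94 without *ZK3*-KO replicate 3 (FDR = 0.0140 in edgeR's test), together with *MAD2L1* (0.84), *CDC20* (0.82) and *RAN* (0.55). With all libraries *TRIP13* was counted at 33.5, 25.2 and 27.6 CPM against 45.5, 64.4 and 16.5 CPM. *MAD2L1BP*, the adaptor that works with TRIP13, did not pass (log2 fold change 0.31, FDR = 0.410 in edgeR's test), nor when *ZK3*-KO replicate 3 was left out (0.13, FDR = 0.562).

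These lists moved between libraries together with genes of DNA replication. The bypass list and the 53BP1 list hold replication genes themselves, such as *PCNA*, *POLD2*, *POLA1* and *PRIM2*. Movement together is therefore partly built into their membership. A list of 20 S phase and proliferation genes, among them *MCM2* to *MCM7*, *CDC6*, *CCNE2* and *MKI67*, had a median log2 CPM relative to the *ZK3*-WT mean of 0.38, -0.21 and -0.12 in the parental libraries and of 0.81, 1.22 and -0.62 in the knockout libraries. The bypass list followed with 0.28, 0.54 and -0.32 in *ZK3*-KO replicates 1, 2 and 3, the 53BP1 axis with 0.14, 0.47 and -0.46, and the interactors with 0.31, 0.52 and -0.10. The 10 genes led by *MAD2L2* had medians of 0.00, 0.14 and -0.25, closer to the parental mean than each of these lists in *ZK3*-KO replicates 1 and 2 but farther from it than the interactors in replicate 3. Of them *REV3L*, *POLH*, *POLK*, *SHLD2* and *CHAMP1* were higher in *ZK3*-KO replicates 1 and 2 than in replicate 3, as the S phase list was, and *MAD2L2*, *SHLD1* and *SHLD3* were highest in replicate 3 among the *ZK3*-KO libraries. The part of cell cycle state in these values was not tested, and in bulk RNA fewer cells in S phase and less RNA per cell cannot be told apart.

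**Figure D5:**
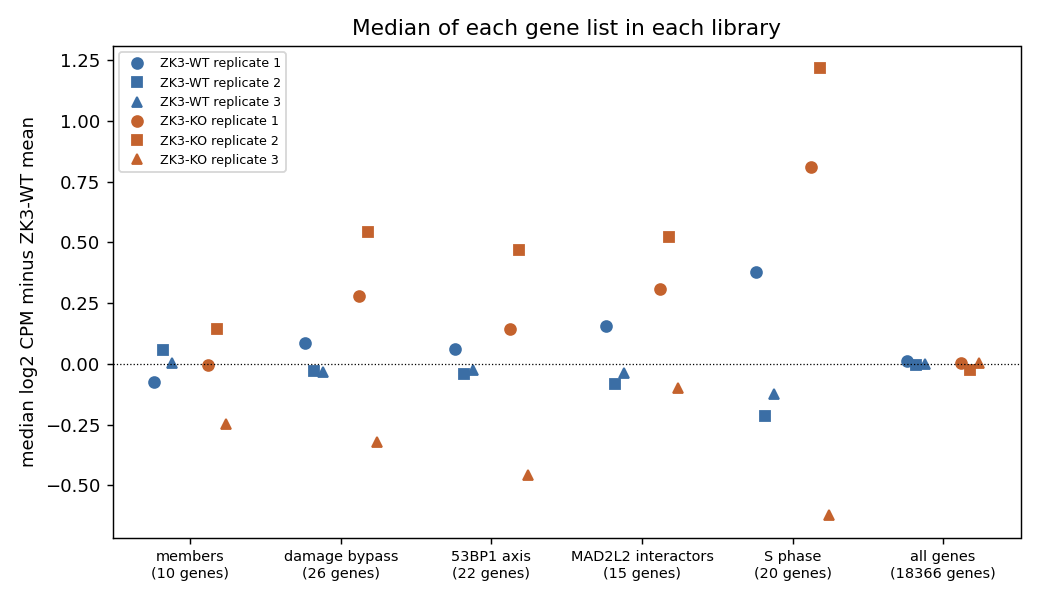
Median over each gene list of the log2 CPM in a library minus the *ZK3*-WT mean of each gene, for the 10 genes led by *MAD2L2* (members), the 3 pathway lists, the S phase list and all 18366 tested genes. *ZK3*-KO replicates 1 and 2 lie above and replicate 3 below 0 for the 3 pathway lists and the S phase list, with the S phase list spread most, from -0.62 to 1.22.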

How the data were processed

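RNA of 3 *ZK3*-WT and 3 *ZK3*-KO cultures was sequenced by the authors. They deposited read counts per gene without normalization, beside FPKM and TPM that the authors scaled by transcript length. The labels name Bowtie2 2.2.5 and hg19/GRCh37. The methods name an Ensembl annotation, whereas rows carry NCBI Gene numbers with RefSeq accessions, and the counting tool and its strand setting are not given in the sources used here. Counts were filtered with filterByExpr, normalized with TMM factors (0.910 to 1.03) and tested with edgeR 4.0.16 (quasi-likelihood, genotype only) in R 4.3.3, with Benjamini-Hochberg adjustment over all 18366 genes. DESeq2 1.42.0 and limma 3.58.1, on log2(TPM + 1), were alternatives, beside library totals, upper-quartile factors, filters of 1 read in total or 10 reads in every library, the replicate block, and each library left out.

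Intervals are 95% intervals of edgeR's log2 fold change. The members and lists were chosen with earlier results of these data known. Named by rule were the members, *PCNA*, *RAD18*, *TP53BP1*, *RIF1*, *TRIP13* and *MAD2L1BP*, list genes past an FDR of 0.05, of those past it only without *ZK3*-KO replicate 3 the 6 per list with the largest change, the 3 genes nearest to *MAD2L2*, genes that overlap or copy a member, and *ZKSCAN3*. Of the genes that overlap a member, not all are named. Replicate numbers come from the titles. Libraries with the same number deviated together across genes (correlations 0.294, 0.112 and 0.449). *ZK3*-WT replicate 1 and *ZK3*-KO replicate 2 also correlated, at 0.209, above the pair numbered 2. The main fit used genotype alone, and the replicate block was an alternative. With the block the log2 fold change was 0.39 for *POLH* (FDR = 0.360 in edgeR's test) and -0.49 for *POLK* (FDR = 0.325). No replicate was a copy of another (chi-square per degree of freedom at least 41.5), and p-values measure the spread between these cultures. On simulated counts with 200 changed genes, edgeR called 127 of 17988, of which 10 were false, and recovered 89.2% of 4-fold and 35.8% of 2-fold changes. Positions are from GENCODE 44 lifted to GRCh37, and promoter windows are from RefSeq. One further epithelial marker is not reported here.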

Additional observations from a re-analysis of the deposited data

How the results depend on the processing

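No member passed an FDR of 0.05 under any of the 13 alternatives, and of 130 fold changes of members under them 27 changed sign, in *MAD2L2*, *REV3L*, *SHLD1*, *SHLD2* and *CHAMP1*. *REV3L* was -0.065 on the log2 scale with library totals alone, -0.028 with upper-quartile factors, -0.00063 with all genes of at least 1 read, -0.0054 with at least 10 reads in every library, -0.040 with the replicate block and -0.15 in limma on log2(TPM + 1). *SHLD2* was -0.072, -0.024, -0.0031 (at least 10 reads in every library), -0.0073 (replicate block) and -0.13 (limma) under these settings, and *CHAMP1* -0.059, -0.018, -0.0076 (replicate block) and -0.13 (limma). Library totals moved the median of all genes from 0.02 to -0.07 and limma moved it to -0.08. When each library was left out in turn, the lowest and highest log2 fold changes were -0.13 and 0.027 for *MAD2L2*, -0.18 and 0.23 for *REV3L*, -0.073 and 0.24 for *SHLD1*, -0.14 and 0.10 for *SHLD2*, and -0.17 and 0.20 for *CHAMP1*.

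The number of genes past an FDR of 0.05 was 376 with all libraries, 461 with the replicate block and 1506 in DESeq2, and from 49 (without *ZK3*-WT replicate 2) to 2858 (without *ZK3*-KO replicate 3) when a library was left out. For the bypass list it was 0, 2 in DESeq2 and 0 to 8 with a library left out. For the 53BP1 axis it was 0, 1 in DESeq2 and 0 to 7, and for the interactors 0 and 0 to 4. The highest of each was without *ZK3*-KO replicate 3, and the cause was not tested. The replicate block called no member and no list gene. *SHLD1* and *SHLD3*, with 86 to 152 reads per library, have the least depth of the 10 genes.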
